A study of Drosophila melanogaster with 5 samples.

Results

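The genes described here encode the subunits of the proteasome in the fruit fly Drosophila melanogaster. They were taken by name from the deposited count table of the 29 °C libraries: every protein-coding gene whose symbol starts with Prosalpha or Prosbeta, or with Rpn or Rpt followed by a digit. This gave 47 genes out of 24034 features, of which 13968 were protein-coding. The same 47 gene identifiers, with the same coordinates on the dm6 genome, were present in the 25 °C table. Among them, 32 were the standard subunits: 14 of the core particle, namely 7 Prosalpha and 7 Prosbeta genes, and 18 of the regulatory particle, namely 6 Rpt and 12 Rpn genes. The other 15 carried an R or a T after the subunit name and are called paralogs below, 10 of core and 5 of regulatory subunits.

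The proteasome is the protease that degrades proteins tagged with ubiquitin, in the cytosol and the nucleus of all eukaryotic cells. Its core particle is a barrel of stacked rings: the outer rings, built from alpha subunits, gate the entry, and the inner rings, built from beta subunits, hold the cleavage sites. The regulatory particle sits on the end of the barrel, where its lid and base bind and remove the ubiquitin chain and a ring of Rpt ATPases unfolds the substrate. Drosophila has, beside the standard genes, a set of duplicated subunit genes that are known mainly from the male germline.

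The study followed the transcriptome of fly heads after feeding of Levodopa, the dopamine precursor, and after overexpression of the linker histone H1. The libraries were made from polyadenylated RNA. The titles name heads and the tissue labels name brain. The groups were as follows. The Levodopa group at 25 °C was wild type and received 4 g/L Levodopa in food for 7 days, and the control group at 25 °C was wild type without treatment. At 29 °C, the Levodopa group was again wild type on 4 g/L Levodopa for 7 days. The H1OE group at 29 °C was the progeny of a temperature-sensitive elav driver line, elav being a gene of neurons, mated at 18 °C to flies carrying an H1 overexpression construct, and was moved to 29 °C for 7 days. The control group at 29 °C was wild type, and its labels give neither a driver background nor a time at that temperature. Genotype, rearing and H1 expression therefore cannot be told apart in the H1OE comparison. Each group was 1 deposited sample. At 25 °C each sample came as 2 count columns, which served as libraries, and nothing ties them to separate flies, so p-values at 25 °C reflect column-to-column spread alone, and that spread may be technical. At 29 °C each sample had 1 column and no test was possible.

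Total counts were 30074894 and 30334054 in the Levodopa columns, against 25947583 and 28856401 in the control columns at 25 °C. The 29 °C libraries held 25975838 counts for Levodopa, 26832877 for H1OE and 24770629 for the control. Counts on mitochondrial genes made up 19.2% and 20.0% of the Levodopa columns, against 13.0% and 13.2% of the control columns, and 4.47% to 5.23% of the 29 °C libraries. Summed over 10 photoreceptor markers, the TMM-scaled CPM (read counts on a depth scale common to the libraries) were 58040 and 57880 in the Levodopa columns, against 77870 and 77620 in the control columns at 25 °C, so eye RNA was present in libraries whose tissue label is brain. Over 8 neuron markers the sums were 4606 and 4612 CPM in the Levodopa columns, against 3251 and 3203 CPM in the control columns. Over 5 glia markers they were 1713 and 1689 CPM in the Levodopa columns, against 1897 and 1873 CPM in the control columns. Over 6 muscle markers they were 1978 and 1969 CPM in the Levodopa columns, against 1831 and 1844 CPM in the control columns. All 8 neuron markers were higher and 9 of the 10 photoreceptor markers lower in both Levodopa columns. The glia markers were divided, with 3 lower and 2 higher, and so were the muscle markers, with 2 lower and 4 higher. Over 12 fat body markers the sums were 4673 and 4675 CPM in the Levodopa columns, against 6673 and 6745 CPM in the control columns. That difference of the sums lay in Obp99b, while of the 12 markers 6 were lower and 3 higher in both Levodopa columns. Without Obp99b the other 11 summed to 4345 and 4338 CPM in the Levodopa columns, against 4346 and 4371 CPM in the control columns. These near-equal sums held opposite changes. For apolpp they held 2849 and 2846 CPM in the Levodopa columns, against 2667 and 2681 CPM in the control columns. For FASN1 they held 1412 and 1415 CPM in the Levodopa columns, against 1563 and 1564 CPM in the control columns. In bulk tissue, fewer cells of a type and less RNA per cell cannot be told apart, and the part that these shifts have in the results was not tested.

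At 25 °C the standard proteasome subunits were lower in Levodopa flies as a group. Their summed level was 2145 and 2125 CPM in the Levodopa columns, against 3119 and 3167 CPM in the control columns. All 32 genes had both Levodopa columns below both control columns, where 39.5% of the 11799 features tested did. With edgeR's quasi-likelihood F test, 31 of the 32 fell at a Benjamini-Hochberg adjusted p under 0.05, where 32% of all features tested were called lower and 26.5% higher. The median log2 fold change of the 32 was -0.60, against -0.0035 over all features tested. With a minimum of 1.5-fold, 16 of the 32 were lower, where 13.9% of all features were. None reached 2-fold with edgeR or with DESeq2, where 3.14% of all features were lower and 2.01% higher by that rule with edgeR. The largest fall, of Prosbeta3, was -0.86, so none would reach 2-fold at an unadjusted p either.

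All 7 inner ring subunits of the core fell, with a median log2 fold change of -0.80. Prosbeta5 (FBgn0029134, dm6 chromosome 2R, 10819978 to 10821178, plus strand) carries the chymotrypsin-like site. It had 109 and 115 CPM in the Levodopa columns, against 190 and 199 CPM in the control columns. Its log2 fold change was -0.80 (SE 0.036, edgeR adjusted p = 2.35e-110), the smallest p among the members. Prosbeta1 (FBgn0010590, chromosome 2R, 16013805 to 16014787, minus strand) carries the caspase-like site. It had 56.9 and 57.3 CPM in the Levodopa columns, against 95.8 and 103 CPM in the control columns, a log2 fold change of -0.80 (SE 0.048, edgeR adjusted p = 6.01e-60). Prosbeta2 (FBgn0023174, chromosome 3L, 14999951 to 15001319, plus strand) carries the trypsin-like site. It had 78.0 and 79.0 CPM in the Levodopa columns, against 116 and 118 CPM in the control columns. Its log2 fold change was -0.58 (SE 0.043, edgeR adjusted p = 6.7e-39), the weakest of the inner ring. All 3 catalytic subunits thus had separated columns, with a gap several times the distance between columns of a group. The remaining inner ring genes build the ring without a cleavage site of their own. Prosbeta3 (FBgn0026380, chromosome 3R, 9005313 to 9006226, minus strand), a single-exon gene, had 50.1 and 49.1 CPM in the Levodopa columns, against 87.3 and 92.2 CPM in the control columns (log2 fold change -0.86, SE 0.051, edgeR adjusted p = 8.17e-62). Prosbeta6 fell by 0.82, Prosbeta7 by 0.74 and Prosbeta4 by 0.62 on the log2 scale.

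Among the outer ring genes, 6 of 7 fell, and the median over the 7 was -0.72. Prosalpha7 had the largest change, -0.75, with 74.4 and 69.3 CPM in the Levodopa columns, against 121 and 122 CPM in the control columns. Prosalpha3, whose yeast counterpart has a tail that closes the gate, fell by 0.74. Prosalpha5 and Prosalpha2 fell by 0.72 each, Prosalpha6 by 0.58 and Prosalpha4 by 0.55 on the log2 scale. Prosalpha1 was the exception. It had 2.08 and 2.18 CPM in the Levodopa columns, against 2.74 and 2.59 CPM in the control columns, a log2 fold change of -0.32 (SE 0.26, edgeR adjusted p = 0.290), on 66 to 71 counts per column.

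The value of Prosalpha1 (FBgn0263121, chromosome 2R, 7827303 to 7828678, minus strand) was uncertain for another reason. CG30382 (FBgn0050382, chromosome 2R, 7830413 to 7831771, minus strand) lies beside it, and the deposited annotation gives both the same protein description, proteasome subunit alpha type-6. Reads that match both copies could be split or dropped by the counting. At 25 °C CG30382 had 4 and 0 counts in the Levodopa columns, against 0 and 0 in the control columns. At 29 °C it had 105 counts in the Levodopa library and 94 in the H1OE library, against 112 in the control library. Both genes together held 70 and 69 counts in the Levodopa columns and 68 and 71 counts in the control columns at 25 °C. Every other standard subunit had at least 26 CPM in every library.

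In the regulatory particle, 18 of 18 genes fell by edgeR's adjusted p, and 6 of them by at least 1.5-fold. Rpn2 lost its call with DESeq2 (adjusted p = 0.244) and both Rpn2 and Rpn6 lost theirs in 3 of the 4 fits with 1 column left out, namely without either control column or without the second Levodopa column (edgeR adjusted p 0.0606 to 0.369). With total counts without mitochondrial genes, Rpn1, Rpn5, Rpn6, Rpn8 and Rpt5 were not called and Rpn2 was called higher. The median log2 fold change was -0.48 over the 6 ATPase genes. Among them Rpt2 fell by 0.63, Rpt3 by 0.58, Rpt4 by 0.49, Rpt1 by 0.47, Rpt6 by 0.46 and Rpt5 by 0.27. In the rest of the base, the ubiquitin receptors Rpn13 and Rpn10 fell by 0.63 and 0.55. The large scaffolds of the base changed less. Rpn1, a docking site for shuttle proteins, fell by 0.31. Rpn2 (FBgn0028692, chromosome 3R, 29153524 to 29157255, plus strand) had 118 and 113 CPM in the Levodopa columns, against 124 and 123 CPM in the control columns. This was the smallest change among the standard subunits, -0.10 on the log2 scale (SE 0.040, edgeR adjusted p = 0.0286). Its sign was the opposite under either scaling by total counts.

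The 8 lid genes had a median of -0.53. Rpn7 had the largest change of the regulatory particle, with 52.8 and 51.2 CPM in the Levodopa columns, against 85.2 and 82.2 CPM in the control columns, a log2 fold change of -0.69 (SE 0.051, edgeR adjusted p = 7.32e-40). Rpn12 fell by 0.65, Rpn3 by 0.63, and Rpn11, the enzyme that removes ubiquitin chains, by 0.62. Rpn9 fell by 0.44 and Rpn5 by 0.27. Rpn8, the partner of Rpn11, fell by 0.22 and Rpn6, which braces the lid against the core, by 0.18. The columns of both genes were separated, but the distance was small: Rpn6 had 83.4 and 77.6 CPM in the Levodopa columns, against 89.4 and 92.4 CPM in the control columns. Rpn6 and Rpn8 changed sign when the trend on gene length was removed or when mitochondrial genes were left out of the library totals.

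**Figure D1:**
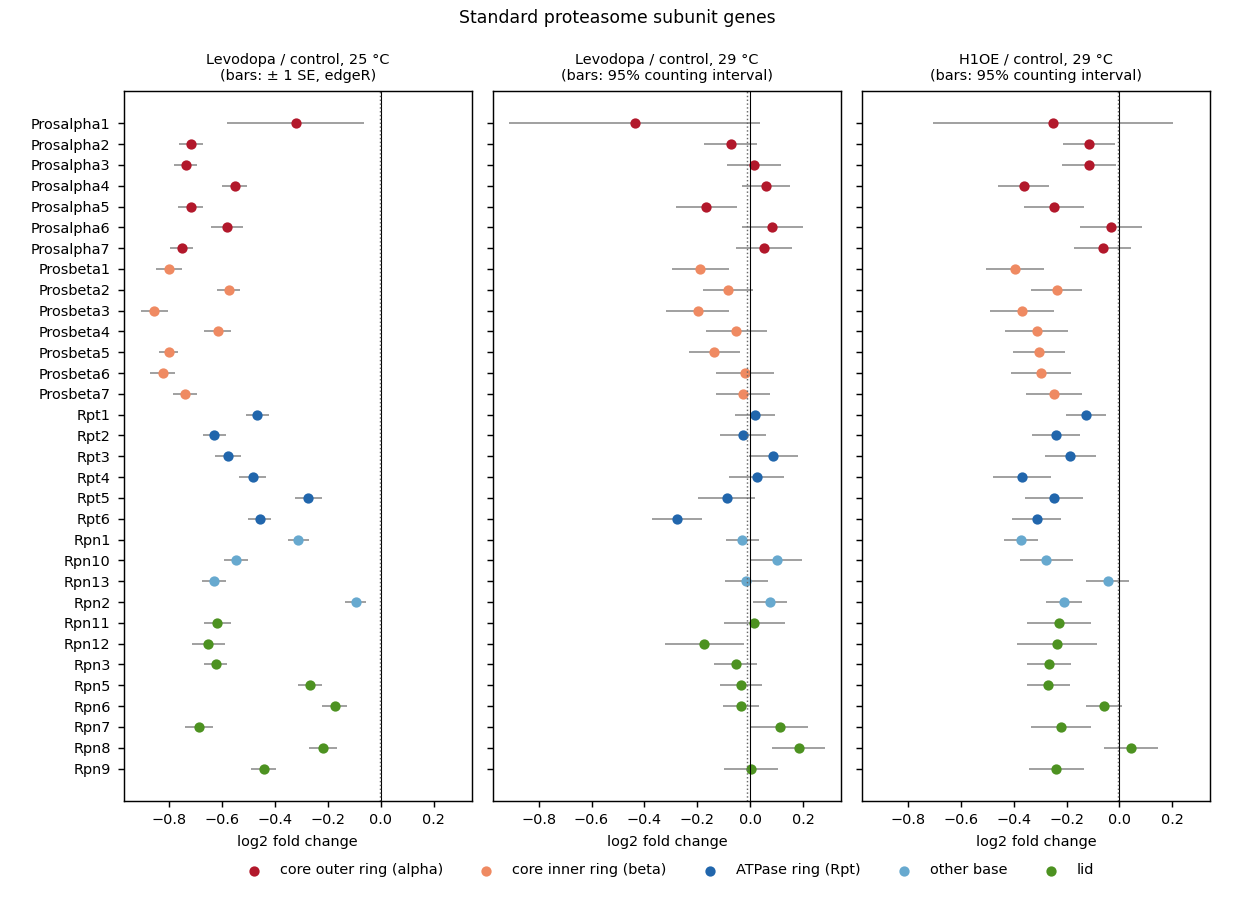
Log2 fold change (horizontal axis) of the 32 standard subunit genes (rows, coloured by position in the complex) for Levodopa over control at 25 °C (points with 1 SE, edgeR), Levodopa over control at 29 °C and H1OE over control at 29 °C (points with 95% counting intervals of the ratio, 1 library a group). The dotted line marks the median of all features. All 32 points lie below 0 in the first panel, they scatter on both sides of 0 in the second, and 31 lie below 0 in the third.

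The size of the fall at 25 °C went with gene length across the standard subunits, less so within the core. The 14 core genes are short, 815 to 1215 bases of exon with a median of 971, and the 18 regulatory genes run from 995 to 3412 bases with a median of 1589. The median log2 fold change was -0.73 for the core genes and -0.48 for the regulatory genes, a difference of -0.25. Across the 32 genes, Spearman's rho between length and log2 fold change was 0.69, as a description of these libraries. Within the 14 core genes it was 0.25 and within the 18 regulatory genes 0.60. Across all 10286 protein-coding genes tested rho was 0.56, so short genes in general were lower in the Levodopa columns. The 1311 other protein-coding genes within the length range of the core genes had a median of -0.46, and 59.5% of them fell by adjusted p. The 6012 others within the range of the regulatory genes had a median of -0.19, and 43.8% fell. That range is stretched upward by Rpn1, of 3041 bases, and Rpn2, of 3412 bases. Closer to the regulatory median length, protein-coding genes in bins around 1536 and 1661 bases had medians of -0.32 and -0.27. The median of each particle lay below that of its length range.

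A smooth trend of fold change on length, fitted over all features tested, was subtracted. After that, 27 of the 32 standard subunits remained lower by edgeR's adjusted p, where 25.9% of all features tested were. These were 13 of 14 core genes and 14 of 18 regulatory genes. The median of the 32 was then -0.25, with -0.32 for the core and -0.23 for the regulatory genes, and the difference between the particles shrank to -0.09. Prosalpha1, Rpn5, Rpn6, Rpn8 and Rpt5 were not called lower after the subtraction. Among the catalytic genes, Prosbeta5 was at -0.42, Prosbeta1 at -0.39 and Prosbeta2 at -0.18. The smallest change in the main comparison, that of the long gene Rpn2, was -0.22 after the subtraction, and Rpn1 was at -0.38, so the order of the base subunits depended on this step. For protein-coding genes the subtraction was incomplete. Spearman's rho with length was still 0.10 over those tested and 0.25 over the 32. Prosbeta6, of 944 bases, moved from -0.82 to -0.41, while protein-coding genes in a bin around 954 bases had a median of -0.51. Values with the trend removed, here and below, can thus still hold an effect of length.

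**Figure D2:**
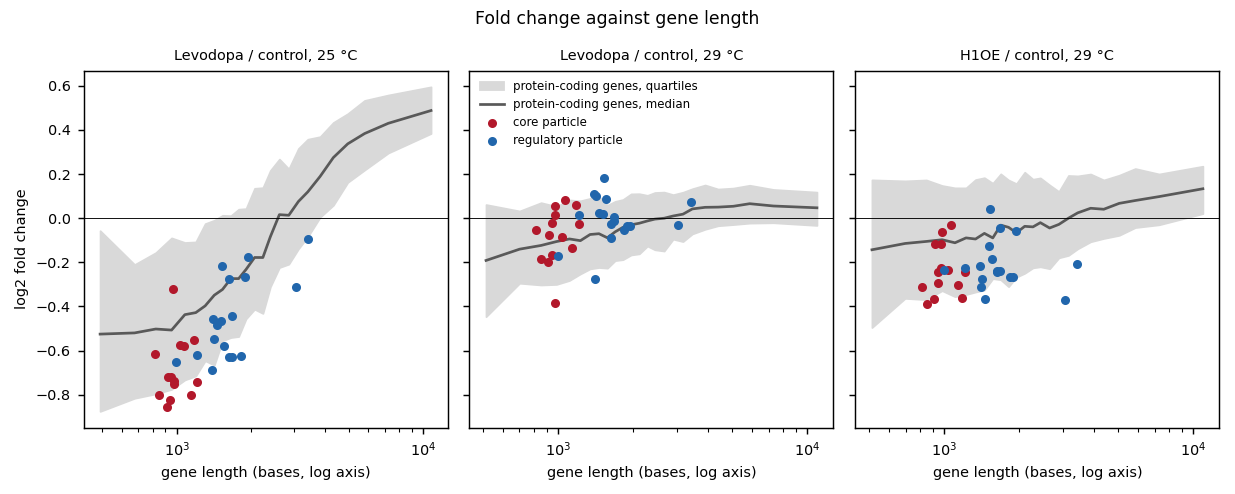
Log2 fold change (vertical axis) against gene length in bases (log axis) for core (red) and regulatory (blue) standard subunits in the 3 comparisons. The line and the grey band give the median and the quartiles of protein-coding genes in bins of equal size. At 25 °C the line climbs with length and most members lie under it, at 29 °C Levodopa members lie on both sides of it, and most members lie under it in H1OE.

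Levels were compared between genes in the deposited FPKM, which divide counts by length and library total. The 31 standard genes other than Prosalpha1 stayed within a narrow range in every library. At 25 °C they spanned 36.3 to 100.4 and 34.5 to 105.2 FPKM in the Levodopa columns, against 34.7 to 159.7 and 34.2 to 166.2 FPKM in the control columns. Prosbeta5 was the highest in all 4 columns, and Rpn2 the lowest in 3 of them, with Rpn12 the lowest in the other. The coefficient of variation across the 31 genes was 30.9% and 31.6% in the Levodopa columns and 40.0% and 41.5% in the control columns. The levels of core genes lay closer to those of regulatory genes in the Levodopa columns. The ratio of the median core to the median regulatory FPKM was 1.66 and 1.63 there, against 1.84 and 1.96 in the control columns. Division by length does not remove the trend of fold change on length. With that trend removed, the core-minus-regulatory difference in median log2 fold change shrank from -0.25 to -0.09.

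In the 29 °C libraries the core-to-regulatory ratio of median FPKM was 1.22 for Levodopa and 1.26 for H1OE, against 1.29 for the control. The highest gene there was Rpt1, with 77.5 FPKM for Levodopa and 76.0 FPKM for the control, and in the H1OE library Rpn6, with 71.8 FPKM. Rpn12 was the lowest in all 3 libraries, at 27.9 FPKM for Levodopa, 26.8 FPKM for H1OE and 31.1 FPKM for the control. Prosbeta5, the top gene at 25 °C, had 60.7 FPKM for Levodopa and 54.3 FPKM for H1OE, against 66.1 FPKM for the control at 29 °C. The tables of the 2 temperatures were processed separately, so no test was made across them.

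**Figure D3:**
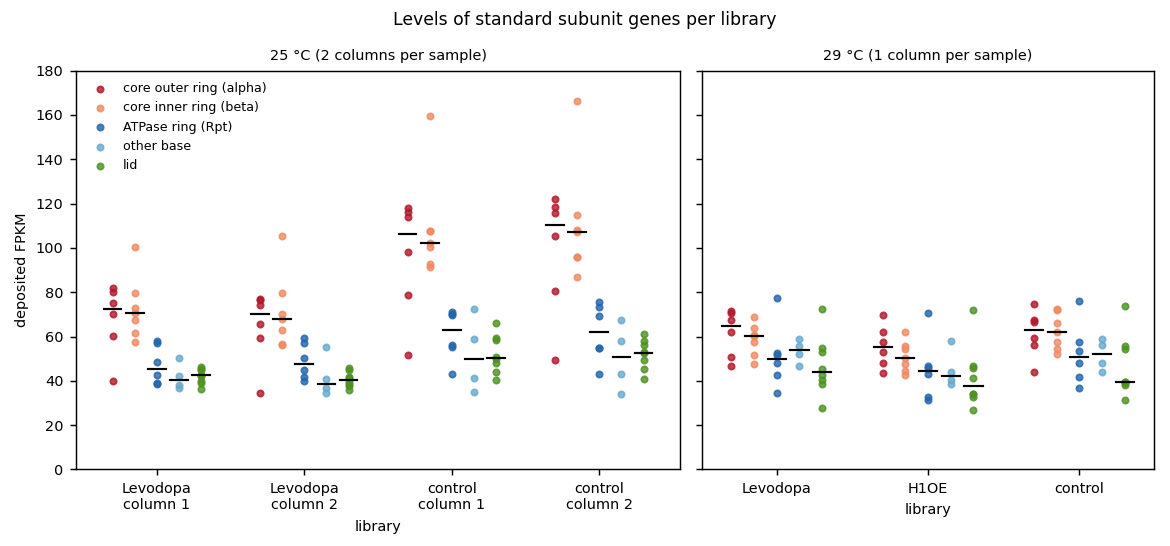
Deposited FPKM (vertical axis) of the standard subunit genes, without Prosalpha1, in each library (horizontal axis), split by position in the complex, with black bars at the median of each position. The medians of both core positions stand above those of the regulatory positions in all 7 libraries, by the widest distance in the control columns at 25 °C.

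At 29 °C the standard subunits in Levodopa heads were centred close to the control. The summed level of the standard subunits was 2322 CPM for Levodopa, against 2356 CPM for the control. The median log2 fold change of the 32 genes was -0.03, against -0.01 over all features, and 19 of them were below 0, where 52.2% of the 11145 features measured were. The sign of this median turned with the length trend removed (0.05) and with total counts in place of TMM (0.02). With 10 counts added to both libraries, none of the members passed 2-fold, where 1.52% of all features were lower and 1.13% higher. The added counts shrink the changes of genes with few counts. With 1 count added, 2 members were higher at 2-fold, Prosbeta2R2 and Rpt6R, and the share of all features at that setting is not given. At a ratio of at least 5 to 4, 1 member was lower, where 13.8% of all features were, and 2 members were higher, where 9.54% were. The lower member was Prosalpha1, with 2.64 CPM for Levodopa and 3.57 CPM for the control (log2 fold change -0.39, ratio 0.740, counting interval 0.531 to 1.03). The 2 higher members were the paralogs Prosbeta2R2 and Rpt6R. Both reached the minimum of 10 counts in the Levodopa library alone, so the filter favoured a higher value there.

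Counting intervals of the ratio, which cover the counting error of 1 library a group and no difference between flies, lay below 1 for 6 standard genes, where 22.6% of all features did. They lay above 1 for 4 standard genes and 2 paralogs, where 18.6% of all features did. The 6 were Prosalpha5, Prosbeta1, Prosbeta3, Prosbeta5, Rpt6 and Rpn12. Rpt6 (FBgn0020369, chromosome X, 21316052 to 21317663, plus strand) was the lowest of them, with 66.1 CPM for Levodopa and 80.0 CPM for the control, a ratio of 0.825 (0.773 to 0.881). Of its exon bases 13% overlap the opposite-strand gene CG1801, and the use of strand in counting is not given in the sources used here. Those 4 above 1 were Rpn2, Rpn7, Rpn8 and Rpn10. Rpn8 (FBgn0002787, chromosome 2R, 24400028 to 24404527, plus strand) had the highest log2 fold change, 0.18, with 68.2 CPM for Levodopa and 60.1 CPM for the control. Among the catalytic genes, Prosbeta5 had 68.0 CPM for Levodopa and 74.7 CPM for the control. Prosbeta1 had 53.5 CPM for Levodopa and 60.9 CPM for the control, and Prosbeta2 had 69.9 CPM for Levodopa and 74.1 CPM for the control. By position, the medians were -0.08 for the inner ring, 0.01 for the outer ring, -0.01 for the ATPases, 0.03 for the other base genes and -0.02 for the lid. Other protein-coding genes of the core length range had a median of -0.10 in these libraries.

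In H1OE heads most of the standard subunits lay slightly below the control. The summed level was 2024 CPM for H1OE, against 2356 CPM for the control. The median log2 fold change was -0.24, against -0.005 over all features. Of the 32 genes 31 were below 0, where 50.7% of the 11340 features measured were, and 26 had a counting interval below 1, where 28.3% of all features did. None of the standard genes had an interval above 1, where 3020 of the 11340 features did. Prosalpha6, Prosalpha7, Rpn6 and Rpn13 crossed 0 with total counts in place of TMM. Below the median of all features lay 31 of the 32. A change of scaling moves all features nearly alike, so this count could hardly change with it. With 10 counts added to both libraries, none of the members passed 2-fold, where 3.77% of all features were lower and 3.35% higher. With 1 count added, 2 members were higher at 2-fold, Prosalpha3T and Prosalpha4T2, and the share of all features at that setting is not given. At a ratio of at least 5 to 4, 7 members were lower, where 19.7% of all features were, and 3 were higher, where 17.2% were. The lower ones were Prosalpha4, Prosbeta1, Prosbeta3, Rpt4 and Rpn1 with the paralogs Prosalpha6T and Rpt4R, and all 3 higher ones were paralogs. Of these, Prosalpha3T and Prosalpha4T2 reached the minimum of 10 counts in the H1OE library and not in the control. The filter thus favoured a higher value for them.

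Prosbeta1 was the lowest standard gene, with 46.4 CPM for H1OE and 60.9 CPM for the control, a log2 fold change of -0.39 and a ratio of 0.761 (counting interval 0.705 to 0.821). The other catalytic genes were also lower: Prosbeta5 had 60.5 CPM for H1OE and 74.7 CPM for the control, a ratio of 0.810 (0.757 to 0.866). Prosbeta2 had 62.8 CPM for H1OE and 74.1 CPM for the control, a ratio of 0.848 (0.794 to 0.907). Rpn8 was the single gene above 0, at 0.04, with 61.9 CPM for H1OE and 60.1 CPM for the control. The intervals of Prosalpha1, Prosalpha6, Prosalpha7, Rpn6, Rpn8 and Rpn13 included 1, so a difference of these 6 was not detectable at this depth. By position the median was -0.30 for the inner ring, -0.12 for the outer ring, -0.24 for the ATPases, -0.24 for the other base genes and -0.23 for the lid.

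The core and regulatory medians were -0.25 and -0.24 in H1OE, and Spearman's rho with length over the 32 genes was 0.17. Other protein-coding genes of the core length range had a median of -0.11, and those of the regulatory range -0.05. With the length trend removed, 28 of 32 standard genes were below 0, where 50.3% of all features were, and the median was -0.18. By position it was then -0.02 for the outer ring, with 5 of 7 genes below 0, and -0.22 to -0.15 for the other positions. Fat body markers summed to 7877 CPM for H1OE and 15330 CPM for Levodopa, against 20780 CPM for the control at 29 °C. Without Obp99b and Lsp1beta the fat body sums were 7385 CPM for H1OE and 10470 CPM for Levodopa, against 11870 CPM for the control. The same libraries had neuron markers at 5188 CPM for H1OE and 4845 CPM for Levodopa, against 4721 CPM for the control. Glia markers summed to 1859 CPM for H1OE and 2388 CPM for Levodopa, against 2288 CPM for the control, and muscle markers to 2785 CPM for H1OE and 3162 CPM for Levodopa, against 2906 CPM for the control. Photoreceptor markers summed to 72410 CPM for H1OE and 75670 CPM for Levodopa, against 73140 CPM for the control. In H1OE 4 of the 5 glia markers and 2 of the 6 muscle markers were below the control. For Levodopa 2 markers of each of these lists were below it. The part of these differences in the proteasome values was not tested. Both 29 °C comparisons share 1 control library, so a feature of that library enters both. Side by side, Prosbeta1 was at -0.39 in H1OE and -0.19 in Levodopa at 29 °C. Prosbeta3 was at -0.37 in H1OE and -0.20 in Levodopa, and Rpt6 at -0.31 in H1OE and -0.28 in Levodopa. Rpn1 was at -0.37 in H1OE and -0.03 in Levodopa, Rpt4 at -0.37 in H1OE and 0.02 in Levodopa, and Prosalpha4 at -0.36 in H1OE and 0.06 in Levodopa.

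The 15 paralogs were near the limit of detection in these heads. Together they held 0.381% and 0.349% of the members' counts in the Levodopa columns, against 0.185% and 0.168% in the control columns at 25 °C. At 29 °C the share was 0.560% for Levodopa and 0.514% for H1OE, against 0.504% for the control. Per library, 7 to 10 of the 15 had any count. Among their gene models 6 of 15, or 40%, have a single exon, where 4 of 32 standard genes, or 12.5%, and 15.4% of all protein-coding genes do. In each comparison 38 of the 47 members, the 32 standard genes and 6 paralogs, had the 10 counts in 1 library needed to enter it. The 6 paralogs were not the same in each comparison. Some entered only through the libraries in which they were higher, so their values are given as a description. Rpt4R and Rpt3R passed in all 7 libraries.

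Rpt4R and Rpt3R, copies of ATPase genes, made up most of the paralog counts. Rpt4R (FBgn0036224, chromosome 3L, 11941912 to 11943485, plus strand) had 140 and 120 counts in the Levodopa columns, against 76 and 76 in the control columns. The log2 fold change was 0.49 (SE 0.21, edgeR adjusted p = 0.0331). The call did not hold with DESeq2 (adjusted p = 0.135), nor when any 1 of the 4 columns was left out (edgeR adjusted p 0.0502 to 0.274). At 29 °C Rpt4R had 212 counts for Levodopa and 135 for H1OE, against 178 for the control, a ratio of 1.10 (counting interval 0.895 to 1.35) for Levodopa and 0.668 (0.530 to 0.840) for H1OE. Its level, 1.75 to 5.49 FPKM, was far below that of its standard counterpart Rpt4, which had 32.7 to 56.2 FPKM. Rpt3R had 37 and 44 counts in the Levodopa columns, against 20 and 26 in the control columns, and the difference did not pass the test (log2 fold change 0.54, SE 0.42, edgeR adjusted p = 0.270). At 29 °C it had 53 counts for Levodopa and 83 for H1OE, against 53 for the control.

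Prosalpha4T1 (FBgn0265606, chromosome 3R, 20748184 to 20749074, minus strand), a single-exon copy of Prosalpha4, was the 1 member past 2-fold at 25 °C. It had 38 and 18 counts in the Levodopa columns, against 7 and 5 in the control columns, a log2 fold change of 1.92 (SE 0.67, edgeR adjusted p = 0.00767). It reached the minimum of 10 counts in the Levodopa columns alone, so the filter favoured a higher value there. Both Levodopa columns lay above both control columns, but the distance between both Levodopa columns was larger than the gap to the control columns. The call was lost without the first control column, the second control column or the first Levodopa column (edgeR adjusted p 0.101, 0.163 and 0.304). At 29 °C it had 14 counts for Levodopa and 16 for H1OE, against 14 for the control.

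The remaining paralogs had at most 26 counts in any library. Prosbeta2R2 had 24 and 24 counts in the Levodopa columns, against 16 and 14 in the control columns at 25 °C, which did not pass the test (edgeR adjusted p = 0.576). At 29 °C it had 17 counts for Levodopa and 8 for H1OE, against 5 for the control, and the Levodopa ratio was 3.13 with a counting interval of 1.11 to 10.9. Rpt6R had 2 and 5 counts in the Levodopa columns and 9 and 2 in the control columns, then 16 for Levodopa and 3 for H1OE, against 5 for the control at 29 °C. Its Levodopa ratio at 29 °C was 2.95 with a counting interval of 1.03 to 10.3. Prosalpha6T, a copy of Prosalpha6 required for normal sperm formation in the fly, had 5 and 9 counts in the Levodopa columns and 8 and 13 in the control columns. At 29 °C it had 26 counts for Levodopa and 14 for H1OE, against 21 for the control.

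Prosalpha4T2 had 4 and 10 counts in the Levodopa columns, against 2 and 6 in the control columns, then 4 for Levodopa and 12 for H1OE, against 1 for the control at 29 °C. Prosalpha3T had 4 and 4 counts in the Levodopa columns and 0 and 0 in the control columns, then 0 for Levodopa and 10 for H1OE, against 2 for the control at 29 °C. With 1 or 2 counts in the control, the H1OE ratios of these genes were 10.6 (counting interval 1.56 to 452) for Prosalpha4T2 and 4.40 (0.939 to 41.3) for Prosalpha3T. Both entered that comparison through the H1OE library alone, so the filter favoured a higher value there. Prosbeta5R1 was detected in both control columns at 25 °C, with 5 and 4 counts, and in none of the other libraries. Prosbeta2R1 had 6 counts in 1 Levodopa column at 25 °C and none elsewhere, and Prosbeta4R1 had 2 counts in the other Levodopa column at 25 °C and 3 for H1OE. In the 29 °C control Rpn12R had 6 counts and Prosbeta5R2 had 3 counts, with none elsewhere, and Rpn13R had 2 counts for H1OE alone. Prosbeta4R2 had 0 counts in all 7 libraries, which allows a scaled level of up to 0.0946 to 0.124 CPM per library, the value of 3 counts.

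**Figure D4:**
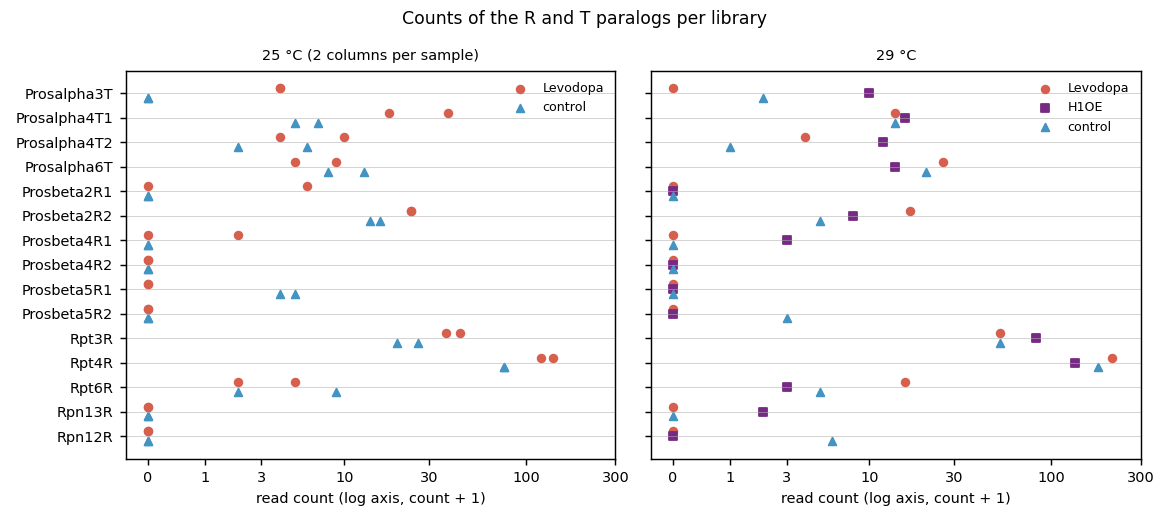
Read counts (horizontal axis, log axis of count + 1) of the 15 paralogs (rows) in the 4 columns at 25 °C and the 3 libraries at 29 °C. Rpt4R and Rpt3R are the highest in both panels, and most other paralogs have under 30 counts in every library.

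Testis markers were given the same check, since several of these paralogs are known from the male germline. Of 30 markers, 16 to 19 had 0 counts in each library. The sperm genes dj, Mst84Da, Mst84Db, Mst84Dc, Mst84Dd, Mst98Ca, Mst98Cb, ProtA and ProtB were at 0 in all 7. In contrast, 9 markers had counts in all 7: bol (1596 to 3741), S-Lap1 (35 to 333), twe (72 to 209), mia (105 to 173), betaTub85D (15 to 73), topi (9 to 56), gdl (13 to 40), Mst77F (4 to 32) and can (2 to 24). The markers summed to 143.9 and 145.2 CPM in the Levodopa columns, against 115 and 119 CPM in the control columns at 25 °C, and to 77.0 CPM for Levodopa and 90.5 CPM for H1OE, against 81.2 CPM for the control at 29 °C. Most of this sum was bol. Of 11 ovary markers matched, 3 to 7 had 0 counts per library, and the sum was 1.17 to 3.76 CPM.

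Genes that build and regulate the proteasome were read from a list of 19 names, of which 12 were found and tested. At 25 °C 10 of the 12 fell by edgeR's adjusted p and 0 rose, none by 2-fold, where 32% of all features fell, 26.5% rose and 3.14% fell by 2-fold. The median log2 fold change was -0.44. With DESeq2 9 were lower and 0 higher. The share of all features called with DESeq2 is not given, so its counts for this and the next lists have no background. CG8858 alone had a value above 0, 0.07 (edgeR adjusted p = 0.283). CG12321 fell by 0.92 (SE 0.075, edgeR adjusted p = 1.08e-33) and CG11885 by 0.79 (SE 0.14, edgeR adjusted p = 9.26e-08). With the length trend removed, the median of the list was -0.20. At 29 °C the median was -0.15 for Levodopa and -0.18 for H1OE, with none past 2-fold. The members farthest from 0 were PSMG1, an assembly chaperone of the core, and CG11885 for Levodopa, at -0.26 and -0.25, and Pomp, the maturation factor of the core, and CG12321 for H1OE, at -0.46 and -0.43.

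The list on transcriptional control holds cnc, the fly counterpart of the mammalian Nrf factors that drive proteasome genes, with its partner, inhibitor and processing enzymes. At 25 °C 5 of 9 fell and 3 rose with edgeR, with a median of -0.09, and 3 fell and 2 rose with DESeq2. Over all features edgeR called 32% lower and 26.5% higher. Der-1, a channel protein of the endoplasmic reticulum, fell by 0.62 (edgeR adjusted p = 6.28e-29) and maf-S, the DNA-binding partner of cnc, by 0.45 (edgeR adjusted p = 5.64e-11). With the length trend removed Der-1 was at -0.26 and maf-S at -0.11. The transcript of cnc itself, named here after its value was seen, had 190 and 185 CPM in the Levodopa columns, against 136 and 140 CPM in the control columns. It rose by 0.44 (SE 0.034, edgeR adjusted p = 6.75e-37), and its value was -0.01 with the length trend removed, the gene being 9178 bases long. At 29 °C the median was -0.14 in both comparisons. Keap1, the inhibitor of cnc, was at 0.38 and Hrd3 at -0.31 for Levodopa, and Der-1 was at -0.49 and sip3, a ubiquitin ligase of the endoplasmic reticulum, at -0.37 for H1OE.

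Ubiquitin genes, with ubiquitin-activating and ligating enzymes, did not move one way. At 25 °C 10 of 22 fell and 10 rose with edgeR, where 32% and 26.5% of all features did, with a median of -0.02, and 8 fell and 10 rose with DESeq2. The largest falls were RpL40, at -0.95, and RpS27A, at -0.88, both of which encode ubiquitin fused to a ribosomal protein. With the length trend removed they were at -0.60 and -0.58. The largest rises were ctrip, at 0.66, and ben, at 0.65. With the length trend removed ctrip, of 11869 bases, was at 0.17 and ben, of 2072 bases, at 0.80. At 29 °C the list's median was 0.01 for Levodopa and -0.02 for H1OE. The members farthest from 0 were CG11700 at 0.71, under 1 CPM in all 3 libraries, and the chaperone-linked ligase STUB1 at -0.28 for Levodopa, and CG11700 at 0.57 and poe at -0.43 for H1OE. Autophagy genes, the other main route of bulk degradation, were also divided at 25 °C, where 6 of 22 fell and 9 rose with edgeR, with a median of 0.02, and 4 fell and 7 rose with DESeq2. Over all features 32% fell and 26.5% rose with edgeR, so the share of autophagy genes that fell was near the background. Atg3, an enzyme that joins Atg8 to lipid, fell by 0.70 (edgeR adjusted p = 2.22e-32), and Mitf, a transcription factor of lysosome genes, rose by 0.62 (edgeR adjusted p = 1.54e-38). With the length trend removed Atg3 was at -0.34 and Mitf at 0.34. At 29 °C the median was -0.01 for Levodopa and 0.07 for H1OE. Atg10 was at -0.51 and Atg8a at -0.27 for Levodopa, and Atg2 was at 0.49 and Atg10 at -0.42 for H1OE.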

How the data were processed

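Read counts per gene and FPKM values were made by the authors and used as deposited. HISAT2 2.2.1 and the genome build dm6 are named in the submitters' processing notes. The counter, its annotation and its use of strand are not given in the sources used here. Deposited FPKM at 25 °C equal count over gene length and column total to within 0.005. A further 2 columns of per-sample values among the 29 °C counts matched no sample and were not used. The members and all gene lists were chosen with earlier results of these data known.

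At 25 °C, counts of features with at least 10 counts in 1 column were tested with edgeR 4.0.16 (R 4.3.3) by the quasi-likelihood F test with TMM scaling and Benjamini-Hochberg adjustment over all features, called at an adjusted p under 0.05. The common biological coefficient of variation was 2.87%. At 29 °C, log2 fold changes were taken from TMM-scaled counts with 10 counts added to both libraries, beside the plain ratio with an exact 95% counting interval, and no test was made. Counting intervals and the limit of 3 counts for a count of 0 cover counting error only. The length trend was a lowess fit (span 0.3) of log2 fold change on log gene length over all features in a comparison, protein-coding or not. Scripts were tested on simulated counts. Alternatives used DESeq2 1.42.0, other scalings, filters, fold minimums and left-out columns.

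Values in every library were given for genes past 2-fold in any comparison and for the catalytic Prosbeta1, Prosbeta2 and Prosbeta5. They were also given for paralogs with at least 10 counts in 1 library. The standard subunits with the highest and lowest log2 fold change of a comparison have values in the libraries of that comparison. From each other list the 2 genes with the largest change per comparison were named. The promoter search that was planned was not run, and no sequences are shown, since no sequence table was used here.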

Additional observations from a re-analysis of the deposited data

Results flagged for a closer look

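For 4 standard subunits the Levodopa difference had opposite signs at the 2 temperatures, with separated columns at 25 °C and a counting interval above 1 at 29 °C. Rpn10 had a log2 fold change of 0.0995 at 29 °C and -0.55 at 25 °C. Rpn7 had 0.111 at 29 °C and -0.69 at 25 °C. Rpn2 had 0.0736 at 29 °C and -0.10 at 25 °C, and Rpn8 had 0.181 at 29 °C and -0.22 at 25 °C. All 4 belong to the regulatory particle. Since all 32 standard subunits had lower Levodopa columns at 25 °C, the flag rested on the interval at 29 °C. That interval lay above 1 for 4 of the 32, where it did for 18.6% of all features. The difference between the temperatures was not tested, since there was 1 library per group at 29 °C and the tables were processed separately. The 25 °C signs of Rpn2 and Rpn8 also depended on the scaling.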

How the results depend on the processing

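The number of members lower at 25 °C by adjusted p was 31, and 25 to 31 under the alternatives. Total counts in place of TMM moved the median of all features to 0.13, and to 0.25 without mitochondrial genes. The median of the standard subunits was then -0.4605 and -0.3489. Since a scaling moves all features nearly alike, its distance of 0.60 below all features could hardly change. It was -0.5625 with at least 50 counts and -0.2524 with the length trend removed. The core-minus-regulatory difference, -0.25, was -0.08931 with the trend removed and -0.2889 to -0.1789 with 1 column left out. Members lower numbered 16 at 1.5-fold, against 0 at 2-fold. The single member higher at 2-fold was lost with at least 50 counts (0), and the count was 0 to 1 with 1 column left out. Members higher by adjusted p, 2 in all, numbered 1 with DESeq2, with at least 1 count and with at least 50 counts, and 0 to 1 with 1 column left out. Signs turned for Rpn2 (0.155, adjusted p = 0.000222, total counts without mitochondrial genes; 0.04329, total counts), Rpn6 (0.00935, trend removed; 0.0751, total counts without mitochondrial genes) and Rpn8 (0.06478 and 0.03193 in the same order). The cause was not tested. Rpn2 and Rpn6 lost their calls without either control column or the second Levodopa column, and Rpn2 also with DESeq2 and with at least 50 counts. Rpn1, Rpn5 and Rpt5 lost theirs with total counts without mitochondrial genes. With 1 column in a group, that column was assumed to vary like the other group.

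For Levodopa at 29 °C the median was 0.04538 with the trend removed, 0.01762 with total counts without mitochondrial genes and 0.02169 with total counts, against -0.03. The core-minus-regulatory difference, -0.06, was 0.01178 with the trend removed. Members higher numbered 2 with 1 count added, at 1.5-fold and at a ratio of 5 to 4, and members lower 1 at that ratio. For H1OE the median, -0.24, was -0.1792 with the trend removed, -0.1826 with total counts without mitochondrial genes and -0.1711 with total counts, and the core-minus-regulatory difference, -0.01, was 0.03167 with the trend removed. Members higher numbered 2 with 1 count added, 3 at a ratio of 5 to 4, 2 at 1.5-fold and 1 with the trend removed, and members lower 7 at a ratio of 5 to 4.

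The column numbers did not pair the columns (correlation of deviations -0.0023 over 8396 genes), and with the replicate block 31 members were lower and 2 higher, as without it. The main limits are 1 sample per group, columns that may be technical repeats, the length trend at 25 °C and the low counts of the paralogs.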
